A study of Mus musculus with 3 samples.

Results

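Growth factor, TGF-beta and BMP signalling genes were followed in kidney RNA of mice with early anti-GBM glomerulonephritis, a model in which antibody given to the animal attaches to the glomerular basement membrane and sets off inflammation of the glomeruli. Members were taken by gene symbol, from ligands through receptors, binding proteins and Smads, without Bmp1. Such a symbol was carried by 181 of the 16281 deposited rows, which named 114 genes. A value other than 0 on all 3 arrays was listed for 88 of these rows (48.6%, against 59.5% of all rows), which left 68 measured genes. A further 27 genes had values, but no row with all 3 arrays, and 19 were listed at 0 throughout.

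The only group was 3 BALB/c mice, studied 1 day after anti-GBM antibody. Each mouse (11, 12 and 13, which are replicates 1, 2 and 3) had its own 2-colour array, with its kidney RNA in Cy5 and the pooled kidney RNA of 5 normal BALB/c mice in Cy3. The labels give no age, sex or other treatment. All values are log ratios, and group values are means ± SD over n = 3 mice. Values of genes measured on all 3 arrays are centred on the median of each array, and, unless called centred, those of rows with values on 1 or 2 arrays are given as deposited. Neither the base of the logarithm nor the direction of the ratio is stated. Folds are therefore printed for a base of 2 and for a base of 10. Positive values are taken as higher in the anti-GBM kidney, the likely reading since red over green is customary, and every sign would turn if the ratio ran the other way. With 1 pool as the control, the test knows nothing of how normal mice vary, and with 1 dye orientation a probe's dye bias remains in its ratio. Ratios carry no levels, so the tissue could not be checked against kidney markers and no gene's level can be set against another's.

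Members of the TGF-beta family bind a pair of serine/threonine kinase receptors that phosphorylate Smad proteins, which enter the nucleus and regulate transcription. Latent TGF-beta is stored in the matrix by binding proteins, and secreted antagonists such as follistatin and gremlin trap activins and BMPs. In the kidney TGF-beta is known as a driver of scarring, and BMP7 as a factor that counters it. The other growth factors here act through receptor tyrosine kinases, and IGF-binding proteins carry IGFs and limit their access to the receptor.

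Past the test, 3 of the 68 measured members were higher and 7 lower (limma's moderated test on each gene, Benjamini-Hochberg adjusted p under 0.05 over all 7235 genes), and 58 did not pass. The 3 higher members were Igfbp2, Fgf18 and Tgfb3. The 7 lower members were Igfbp1, Pdgfra, Ereg, Vegfd, Igf1, Fstl3 and Erbb4. The share of members past the test was 14.7%, against 19.4% of all genes. By direction, 4.41% of members were higher against 9.48% of all genes, and 10.3% were lower against 9.97%. The median of their mean log ratios was -0.04, against -0.00 for all genes, and their quartiles were -0.15 and 0.10. A mean beyond 0.5 in either direction was seen in 6 members (8.82%) and in 320 of all genes (4.42%). The same sign in all 3 mice was seen in 33 of 68 members (48.5%) and in 56.5% of all genes. All 10 called members had the same sign in all 3 mice, which adds no support, since the calls came from these same values. In a fit of single rows 4 of the 88 member rows were higher and 8 were lower, against 9.55% and 10.1% of all 9682 rows. The share of all genes at unadjusted p under 0.05 was not counted. It is at least 19.4%, since adjustment never lowers p. Counts of members at unadjusted p, given below, are therefore no result about the members. In whole kidney RNA, fewer cells of a type and less RNA per cell cannot be told apart.

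**Figure D1:**
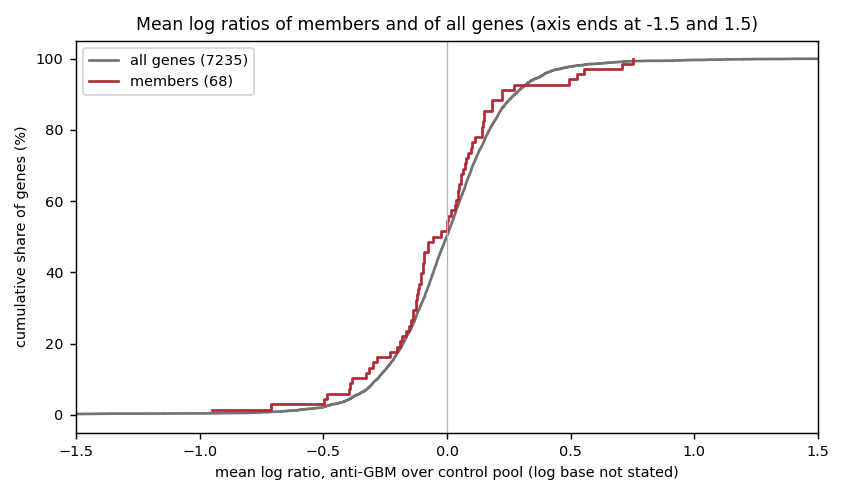
Cumulative share of genes in percent (y axis) by mean log ratio of 3 mice, anti-GBM over control pool, log base not stated (x axis, which ends at -1.5 and 1.5), for the 68 members and all 7235 genes. The curves run close together around their medians of -0.04 and -0.00, and the members have longer steps at both ends, where 6 of them lie beyond 0.5.

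The promoters of the 2 highest and 2 lowest called members are shown because these genes carried the widest shifts among the called members. The sequences come from RefSeq (GRCm38.p6) and run from 250 bases before to 50 bases after the gene start, read 5′ to 3′ on the gene's strand. Of the 10 called members 8 had an entry. The missing ones are Tgfb3 and Ereg. Capitals mark matches, on either strand, to the Smad core CAGAC, the GC box GGGCGG, the TATA box TATAAA and the core CAAAACA of the insulin response element. None of these motifs overlaps another in the 4 windows shown. Igfbp2 lies at chr1:72824230-72824529 (plus strand, the first of 2 entries), Fgf18 at chr11:33147351-33147650 (minus strand), Igfbp1 at chr11:7197537-7197836 (plus strand) and Pdgfra at chr5:75152001-75152300 (plus strand).
Igfbp2: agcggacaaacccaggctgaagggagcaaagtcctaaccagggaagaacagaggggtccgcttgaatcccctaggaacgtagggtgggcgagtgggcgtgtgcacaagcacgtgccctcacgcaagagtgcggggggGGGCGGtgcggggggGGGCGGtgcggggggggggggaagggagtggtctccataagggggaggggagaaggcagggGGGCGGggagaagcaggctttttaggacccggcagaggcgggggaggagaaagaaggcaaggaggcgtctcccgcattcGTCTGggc
Fgf18: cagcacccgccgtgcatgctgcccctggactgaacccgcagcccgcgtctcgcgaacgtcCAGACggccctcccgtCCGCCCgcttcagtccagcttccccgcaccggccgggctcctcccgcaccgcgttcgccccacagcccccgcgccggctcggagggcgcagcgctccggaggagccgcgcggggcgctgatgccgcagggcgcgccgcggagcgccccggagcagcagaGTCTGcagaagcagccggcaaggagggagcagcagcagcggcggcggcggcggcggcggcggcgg
Igfbp1: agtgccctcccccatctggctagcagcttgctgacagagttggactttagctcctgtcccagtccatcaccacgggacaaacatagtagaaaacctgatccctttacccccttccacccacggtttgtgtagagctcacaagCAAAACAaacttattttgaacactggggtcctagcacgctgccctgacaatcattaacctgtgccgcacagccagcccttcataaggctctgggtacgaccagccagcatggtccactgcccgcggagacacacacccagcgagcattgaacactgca
Pdgfra: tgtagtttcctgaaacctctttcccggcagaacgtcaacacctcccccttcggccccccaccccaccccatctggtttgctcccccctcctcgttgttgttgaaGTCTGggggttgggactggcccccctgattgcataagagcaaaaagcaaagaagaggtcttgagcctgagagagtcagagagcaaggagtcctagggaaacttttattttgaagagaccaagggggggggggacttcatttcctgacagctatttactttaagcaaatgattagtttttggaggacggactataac
The Igfbp1 window held 1 match to CAAAACA, a motif found in 6.28% of 32851 promoter windows of the same length, and no match to the other motifs. The Igfbp2 window held 3 GC boxes and 1 Smad core, while its second entry, not shown, held 0 GC boxes and 2 Smad cores. The Fgf18 window held 2 Smad cores and 1 GC box, and the Pdgfra window held 1 Smad core. A Smad core was present in 49.6% of all windows, a GC box in 35.7% and a TATA box in 13.6%. A match describes letters and was not tested as a binding site.

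Among the TGF-beta ligands and latent binding proteins, 1 of 4 measured genes was higher and 0 were lower. Tgfb3, a TGF-beta ligand, was at 0.35, 0.85 and 0.28 in mice 11, 12 and 13. All 3 mice lay above 0, and mouse 12 was well above the other two. The mean of 0.49 ± 0.31 corresponds to 1.41-fold at base 2 or 3.12-fold at base 10 (adjusted p = 0.0266, limma). Without mouse 12 the mean was 0.32 and the call was lost (adjusted p = 0.0535, limma). Tgfb2, another ligand, was at 0.20, 0.19 and 0.15, with a mean of 0.18 ± 0.02 that did not pass (adjusted p = 0.109, limma). Its 3 mice were among the closest together of all members. Ltbp1, which tethers latent TGF-beta to the matrix, was at -0.20 ± 0.03 (adjusted p = 0.0817, limma), from a row in a crowded stretch (defined below). Ltbp3 was at 0.10 ± 0.05. With the running median of neighbouring rows subtracted, Ltbp1 was at -0.05 and Tgfb2 at 0.09 (adjusted p = 0.635 and 0.375, limma). Tgfb3 then stayed past the test at 0.47 (adjusted p = 0.0137, limma), and Ltbp3 was at 0.105. Tgfb1, the ligand best known in renal fibrosis, was listed at 0 on all 3 arrays, so its ratio is unknown here. Ltbp2 had values of 0.54 and 0.27 in mice 12 and 13 and was listed at 0 in mouse 11.

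No receptor of TGF-beta or activin passed limma's test (0 of 4 measured, 0 at unadjusted p under 0.05). The type II TGF-beta receptor Tgfbr2 was at 0.05 ± 0.08. The activin receptors Acvr2a and Acvr2b were at -0.11 ± 0.15 and -0.13 ± 0.04, and the endothelial receptor Acvrl1 at -0.12 ± 0.08. The 2 rows of Acvr2b lay at -0.24 and -0.01, and with only the row of smaller SD kept the gene was at -0.24 and passed (adjusted p = 0.0423, limma). That row was picked by its SD in these same mice, which favours a pass. In the fit of single rows the same row did not pass (adjusted p = 0.0548, limma). Tgfbr1, the type I TGF-beta receptor, had a row with -0.04 and 0.15 in mice 11 and 13, and another with a value in mouse 13 only (0.50). Acvr1, a BMP type I receptor, was at 0.84 and 0.33 in mice 12 and 13 and listed at 0 in mouse 11.

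The BMP arm showed no call. Of the BMP and GDF ligands 0 of 4 measured genes passed, with 2 at unadjusted p under 0.05 in limma's fit (share of all genes not counted). Bmp7, which the collecting duct and podocytes of the adult kidney make, was at -0.13, -0.14 and -0.28, a mean of -0.18 ± 0.08 (adjusted p = 0.118, limma). All 3 mice lay below 0. With the running median of neighbouring rows subtracted, Bmp7 was at -0.25 and passed (adjusted p = 0.0437, limma). Of 11 measured collecting duct markers 5 were lower and 0 higher (45.5% past the test, against 19.4% of all genes). Their medians were -0.00, -0.12 and -0.25 in mice 11, 12 and 13. Of 6 podocyte markers 2 were higher and 2 lower (66.7% past the test), with 0 lower without mouse 11 or mouse 12. All marker lists here and below were chosen with earlier results of these data known, so their shares are no independent evidence. The part of these markers in the values of Bmp7 was not tested. Bmp4 was at 0.24, 0.42 and 0.01 (mean 0.22 ± 0.21, adjusted p = 0.13, limma), so mouse 13 was near 0. Bmp6 ranged from -0.23 in mouse 12 to 0.26 in mouse 13, and Gdf1 was at -0.14 ± 0.20. Of 15 ligands matched by symbol, 5 had values but no row with all 3 arrays, and 6, Bmp2 among them, were listed at 0. The BMP receptors Bmpr1a, Bmpr1b and Bmpr2 had means of 0.10, -0.10 and -0.08, with 0 of 3 past limma's test and 0 at unadjusted p under 0.05.

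The measured Smad proteins, the shared transducers of both arms, were close to 0. Of 4 measured genes 0 passed limma's test and 0 were at unadjusted p under 0.05. Smad1 and Smad5, which carry BMP signals, were at 0.15 ± 0.12 and 0.07 ± 0.07. Smad2, which carries TGF-beta and activin signals, was at 0.08 ± 0.20, with mouse 12 below 0 and the others above. The inhibitory Smad6 was at -0.00 ± 0.07, but a second Smad6 row, with a value in mouse 13 only, read -0.97. Smad9 too had a value in mouse 13 only (-0.35), from a row in a crowded stretch (defined below). Smad3 and the common partner Smad4 were listed at 0 throughout, while the inhibitory Smad7 had a value in mouse 13 only (0.10).

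The activin and inhibin subunits held the widest spread between mice. Inhbc, an activin subunit, was at 0.45, 0.06 and 1.16 in mice 11, 12 and 13. Its SD of 0.56 was the largest of the 68 members, and its mean of 0.55 was the largest that did not pass (adjusted p = 0.0674, limma). Without mouse 12 it was at 0.80 (adjusted p = 0.0106, limma), and without mouse 11 at 0.61 (adjusted p = 0.0169, limma). Without mouse 13, its highest, it was at 0.25 (adjusted p = 0.157, limma). Inhbe, whose gene stands next to Inhbc in RefSeq, was near 0 in mice 11 and 12 (-0.04 and -0.07) and at 0.56 in mouse 13. In the rows on all 3 arrays mouse 13 was the highest for both genes. A second Inhbe row, in a crowded stretch (defined below), read 0.27 and -0.70 in mice 12 and 13, so there mouse 13 was the lower. With rows on at least 2 arrays kept, Inhbe was at -0.01 (adjusted p = 0.962, limma). Inhba was at 0.15 ± 0.34, and Inha, the inhibin alpha subunit that opposes activin, at -0.19 ± 0.08 (adjusted p = 0.105, limma). Inha has 3 rows, at -0.37, -0.11 and -0.10, and the lowest of them passed in the fit of single rows (adjusted p = 0.039, limma), in which 19.6% of all rows passed. Of the 4 measured subunits 0 passed the gene fit and 2 were at unadjusted p under 0.05 (share of all genes not counted). Inhbb, the other main activin subunit, had no row on all 3 arrays. Its rows disagree in size, with centred means over mice 12 and 13 of 1.35 for one row and 0.04 for another.

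All 4 measured secreted antagonists and follistatin-like genes had means below 0, and 1 was lower past the test. Fstl3, which binds activin and myostatin, was at -0.40, -0.39 and -0.39 in mice 11, 12 and 13. The mean of -0.39 ± 0.01 (adjusted p = 0.011, limma) had the smallest SD of the 68 members and corresponds to 1.31-fold lower at base 2 or 2.46-fold at base 10. Fst, the activin antagonist follistatin, was at 0.08 in mouse 11 and at -0.48 and -0.55 in mice 12 and 13. It did not pass (mean -0.32 ± 0.35, adjusted p = 0.113, limma), but did without mouse 11, at -0.52 (adjusted p = 0.0079, limma). Without mouse 12 or mouse 13 Fst did not pass (adjusted p = 0.289 and 0.336, limma). Grem1, the BMP antagonist gremlin, was at -0.35, -0.10 and -0.41. It lay just outside the threshold (mean -0.28 ± 0.17, adjusted p = 0.054, limma) and passed without mouse 12, at -0.38 (adjusted p = 0.029, limma). Without mouse 11 or mouse 13 Grem1 did not pass (adjusted p = 0.227 and 0.152, limma). Fstl1 was at -0.10 ± 0.21, with mouse 12 above 0. The medians of the group were -0.25, -0.24 and -0.40 in mice 11, 12 and 13. Nog, the BMP antagonist noggin, had a value in mouse 13 only (-0.32).

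**Figure D2:**
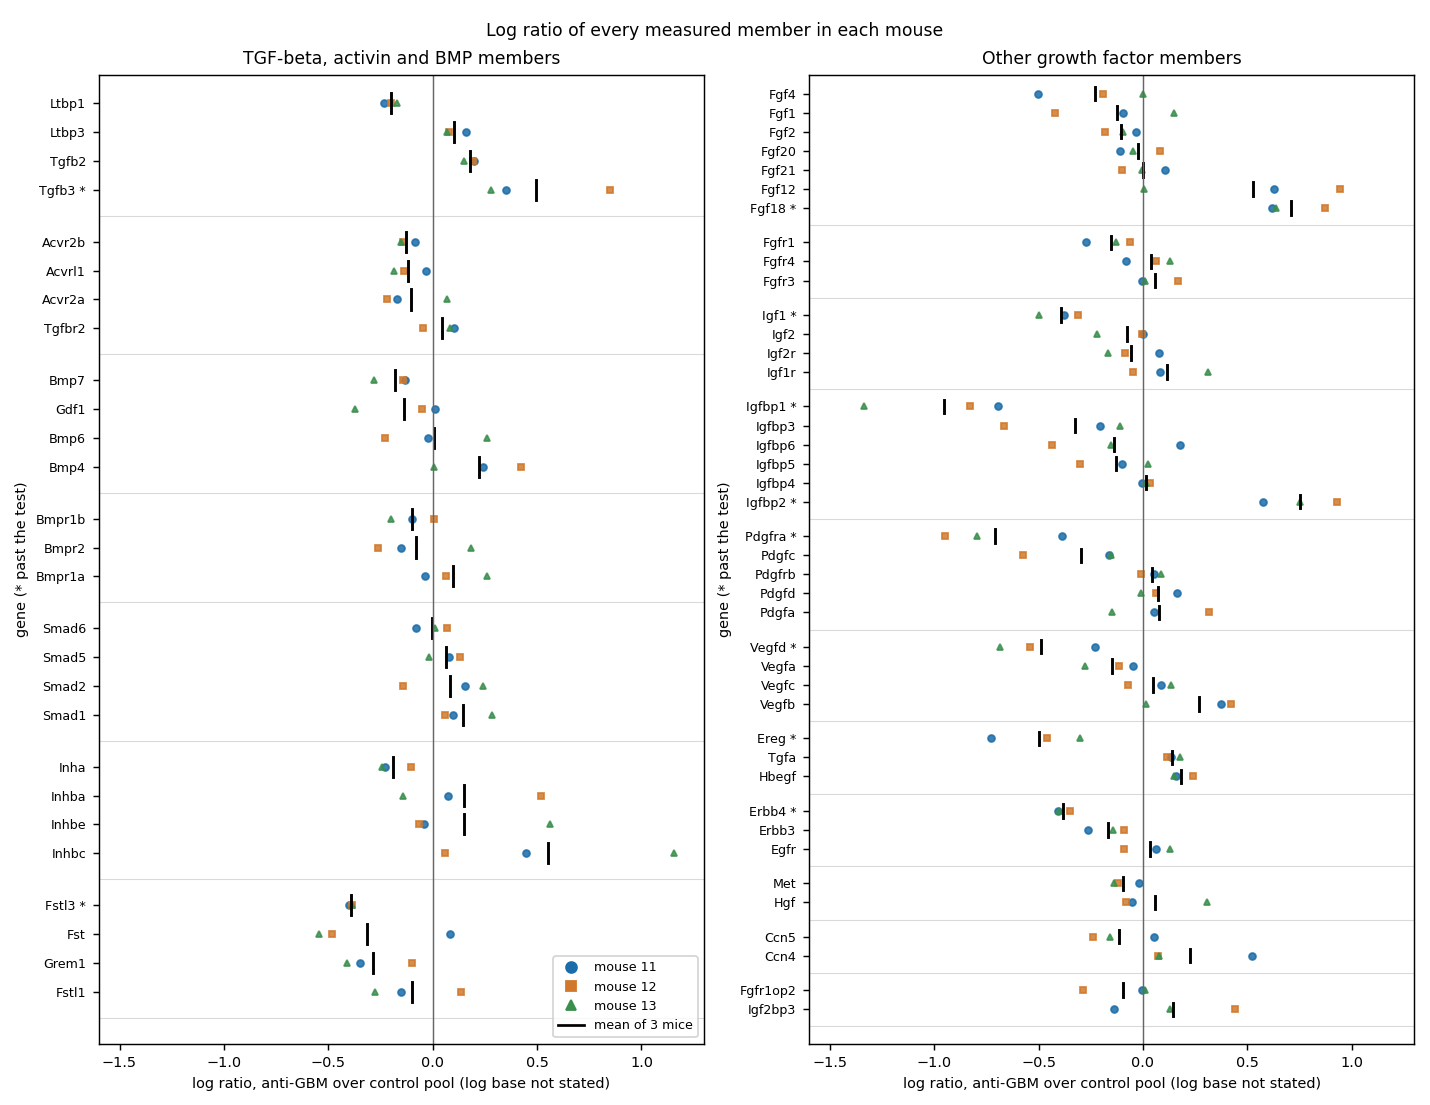
Log ratio of each of the 68 measured members, anti-GBM over control pool with log base not stated (x axis), one gene per line, grouped by role, with coloured points for mice 11, 12 and 13 and a black bar for their mean. Asterisks mark the 10 genes past the test. The TGF-beta, BMP and activin receptors and the Smad proteins sit near 0, while Inhbc, Fgf12 and Igfbp1 spread widely between mice.

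The IGF axis gave the highest and the lowest mean among the called members. Igfbp1, a binding protein that insulin suppresses and that stress and fasting raise in liver, was at -0.69, -0.83 and -1.34 in mice 11, 12 and 13. The mean of -0.95 ± 0.34 corresponds to 1.93-fold lower at base 2 or 8.96-fold at base 10 (adjusted p = 0.00393, limma). Igfbp2, another IGF carrier, was at 0.58, 0.93 and 0.75. Its mean of 0.75 ± 0.17 corresponds to 1.68-fold higher at base 2 or 5.65-fold at base 10 (adjusted p = 0.00277, limma). A second Igfbp2 row, listed at 0 in mouse 11, read 0.59 and 0.91 in mice 12 and 13. The first row read 0.94 and 0.76 there as deposited, so both rows were high but ordered the mice differently. The calls of Igfbp1 and Igfbp2 held with any 1 mouse left out. In RefSeq the gene next to Igfbp1 is Igfbp3, the main IGF carrier of plasma, and the gene next to Igfbp2 is Igfbp5. Igfbp3 was at -0.21, -0.66 and -0.11, below 0 in all 3 mice but not past the test (mean -0.33 ± 0.30, adjusted p = 0.079, limma), the lowest mean that did not pass. Igfbp5 was at -0.13 ± 0.17 and Igfbp6 at -0.14 ± 0.31. Igfbp4 was at 0.01 ± 0.02, with the second smallest SD of the members. In all, 1 of 6 measured IGF-binding proteins was higher and 1 was lower.

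Igf1, the growth hormone-dependent ligand, was lower. Its gene values were -0.38, -0.31 and -0.50 in mice 11, 12 and 13, with a mean of -0.39 ± 0.09 (adjusted p = 0.0134, limma). These values average 2 rows that differ in size. One row was at -0.41, -0.64 and -0.85, and the other at -0.35, 0.02 and -0.14. With only the row of smaller SD kept, Igf1 was at -0.16 and did not pass (adjusted p = 0.231, limma). In the fit of single rows the first row passed (mean -0.63 ± 0.22, adjusted p = 0.00616, limma). Igf2 was at -0.08 ± 0.13, the signalling receptor Igf1r at 0.11 ± 0.18 and the clearance receptor Igf2r at -0.06 ± 0.12. None of these 3 passed. Irs1, the docking protein below the insulin and IGF1 receptors, was lower at -0.32 ± 0.17 (adjusted p = 0.0405, limma), which no longer passed once mouse 11 or mouse 13 was dropped (adjusted p up to 0.155, limma).

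Of 7 measured FGF ligands 1 was higher and 0 were lower. Fgf18, which acts in bone and lung development, was at 0.62, 0.87 and 0.64 in mice 11, 12 and 13. All 3 mice were high, and the mean of 0.71 ± 0.14 corresponds to 1.63-fold at base 2 or 5.11-fold at base 10 (adjusted p = 0.00266, limma). Its row lies in what is called a crowded stretch here, with at least 3 other rows of means below -1 within 100 row numbers. With the running median of neighbouring rows subtracted it was at 0.74 (adjusted p = 0.00267, limma). A second Fgf18 row was listed at 0 on every array, so without crowded stretches Fgf18 had no value to test. Fgf12, an intracellular FGF that is not secreted, was at 0.63, 0.94 and 0.01, so mouse 13 stood apart from the others. It was just outside the threshold (mean 0.53 ± 0.48, adjusted p = 0.0549, limma) and passed without mouse 13, at 0.79 (adjusted p = 0.00734, limma). Without mouse 11 or mouse 12 Fgf12 did not pass (adjusted p = 0.0502 and 0.157, limma). In the fit of single rows it passed (adjusted p = 0.0493, limma). A second row of Fgf12 read 0.10 and -0.01 in mice 12 and 13. Fgf4 was at -0.23 ± 0.25, Fgf1 at -0.12 ± 0.29 and Fgf2 at -0.10 ± 0.07. The rows of Fgf1 differed in sign, at -0.31 and 0.06. Of the 22 FGF ligands matched, 8 had values but no row with all 3 arrays, and 7 were listed at 0.

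FGF23, the bone hormone of phosphate balance, signals in the kidney through FGF receptors joined to klotho. Fgf23 itself had a value in mouse 13 only (-0.01). The receptors Fgfr1, Fgfr3 and Fgfr4 were at -0.16 ± 0.11, 0.06 ± 0.10 and 0.04 ± 0.11, with 0 of 3 past limma's test and 0 at unadjusted p under 0.05. Kl, the klotho co-receptor, was lower at -0.90 ± 0.31 (adjusted p = 0.00388, limma), but its 3 rows ranged from -2.34 to -0.18. Fgfbp1, which releases FGFs from the matrix, was higher at 0.74, 0.72 and 0.70 in mice 11, 12 and 13 (mean 0.72 ± 0.02, adjusted p = 0.00128, limma), with rows at 0.59 and 0.86.

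Of the PDGF genes 1 of 5 measured members was lower and 0 were higher. Pdgfra, the alpha receptor that interstitial fibroblasts carry, was at -0.39, -0.95 and -0.80 in mice 11, 12 and 13. All mice were below 0, with mouse 11 the least so. The mean of -0.71 ± 0.29 corresponds to 1.64-fold lower at base 2 or 5.15-fold at base 10 (adjusted p = 0.00728, limma). Pdgfrb, the beta receptor of mesangial cells and pericytes, was at 0.05, -0.01 and 0.08 (mean 0.04 ± 0.05, adjusted p = 0.687, limma). The difference between the receptors was not tested. Of 10 measured markers of mesangial cells, smooth muscle and fibroblasts, 4 were higher and 1, Pdgfra itself, was lower. Without mouse 12 or mouse 13 only 2 were higher. The medians of these markers were 0.23, 0.03 and 0.13 in mice 11, 12 and 13, and their part in the result was not tested. The ligand Pdgfc was at -0.17, -0.57 and -0.16 (mean -0.30 ± 0.24, adjusted p = 0.0735, limma), and with the running median of neighbouring rows subtracted it was at -0.33 and passed (adjusted p = 0.0304, limma). Pdgfa and Pdgfd were at 0.08 ± 0.23 and 0.07 ± 0.09.

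Of the 4 measured VEGF ligands 1 was lower and 0 were higher. Vegfd, a ligand of lymphatic growth, was at -0.23, -0.54 and -0.69 in mice 11, 12 and 13, a mean of -0.49 ± 0.23 (adjusted p = 0.0165, limma). This corresponds to 1.40-fold lower at base 2 or 3.07-fold at base 10. Vegfa, which podocytes make to sustain the glomerular capillaries, was at -0.05, -0.12 and -0.28 (mean -0.15 ± 0.12, adjusted p = 0.216, limma). Vegfb was at 0.37, 0.42 and 0.01, so mouse 13 lay near 0. Its mean of 0.27 ± 0.22 did not pass (adjusted p = 0.0865, limma), but did without mouse 13, at 0.40 (adjusted p = 0.027, limma). Without mouse 11 or mouse 12 Vegfb did not pass (adjusted p = 0.318 and 0.262, limma). Both of its rows were above 0, at 0.19 and 0.35. Vegfc was at 0.05 ± 0.11. Of 9 measured endothelial markers 0 were higher and 1, Eng, was lower (11.1% past the test, against 19.4% of all genes). Eng did not pass without mouse 11 or mouse 13, and 0 of these markers were lower without mouse 11. Flt1 was at -0.26, -0.76 and 0.44 in mice 11, 12 and 13, and was lower only with mouse 13 left out.

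In the EGF family 1 ligand and 1 receptor were lower. The ligand Ereg, epiregulin, was at -0.73, -0.46 and -0.30 in mice 11, 12 and 13, a mean of -0.50 ± 0.21 (adjusted p = 0.0135, limma). Without mouse 11 it was at -0.38 and lost its call (adjusted p = 0.0525, limma). A second Ereg row was listed at 0 on every array. The receptor Erbb4, which binds neuregulins and some EGF-like ligands, was at -0.41, -0.35 and -0.40, a mean of -0.38 ± 0.03 (adjusted p = 0.0117, limma). Its mice lay close together, but with the 2 remaining arrays after mouse 11 was left out it did not pass (adjusted p = 0.0547, limma) at nearly the same mean, -0.37. Erbb3 was at -0.17 ± 0.09 and Egfr at 0.03 ± 0.11. The ligands Tgfa (0.13, 0.11 and 0.18) and Hbegf (0.16, 0.24 and 0.15) were above 0 in every mouse but did not pass (adjusted p = 0.19 and 0.109, limma). Hbegf passed with only its row of smaller SD, at 0.23 (adjusted p = 0.0492, limma), a row picked by its SD in these same mice. In the fit of single rows neither that row nor the other one, at 0.13, passed (adjusted p = 0.0629 and 0.245, limma). Outside the rule, the ligands Egf and Btc were lower at -0.31 ± 0.07 and -0.26 ± 0.05 (adjusted p = 0.0264 and 0.0418, limma). Egf no longer passed once mouse 11 or mouse 12 was dropped (adjusted p up to 0.101, limma), nor Btc once any 1 mouse was (up to 0.184). Egf is made in the thick ascending limb and distal tubule. Of 6 measured markers of these segments 4, Egf among them, were lower (66.7% past the test, against 19.4% of all genes). Their medians were -0.28, -0.41 and -0.26 in mice 11, 12 and 13, and 2 were lower once mouse 11 or mouse 12 was dropped. Their part in the results was not tested.

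**Figure D3:**
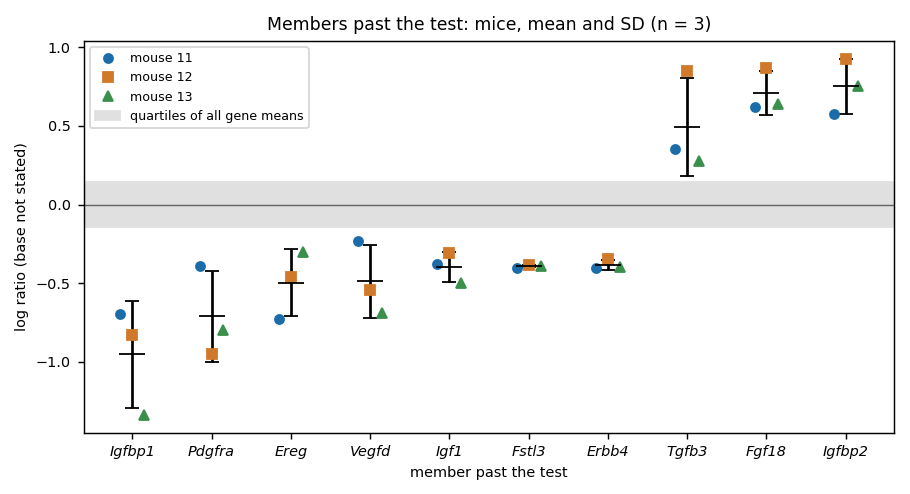
Log ratio, anti-GBM over control pool with log base not stated (y axis), of the 10 members past the test (x axis, from lowest to highest mean), with a point for each mouse, a horizontal bar for the mean and whiskers of 1 SD (n = 3). The grey band spans the quartiles of the means of all genes, from -0.14 to 0.14. Every mouse of every gene lies outside the band, which is no separate support since the genes were called from these values. The points of Fstl3 and Erbb4 nearly coincide.

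HGF and its receptor were close to 0, with Hgf at 0.06 ± 0.22 and Met at -0.09 ± 0.06 (0 of 2 past limma's test, 0 at unadjusted p under 0.05). Among the CCN matricellular proteins, Ccn4 was at 0.52 in mouse 11 and at 0.07 and 0.08 in the others (mean 0.22 ± 0.26), and Ccn5 at -0.12 ± 0.15. Neither passed limma's test or had an unadjusted p under 0.05. Ccn2, the connective tissue growth factor that TGF-beta induces, read 1.99 in mouse 12 and was listed at 0 in mice 11 and 13, and its other row was listed at 0 throughout. A related gene outside the rule, Ccn1, was higher at 0.93, 1.23 and 1.00 (mean 1.06 ± 0.15, adjusted p = 0.000475, limma), with its row in a crowded stretch. The symbol rule also took in 2 measured genes that are no growth factor, receptor or Smad, the RNA-binding protein gene Igf2bp3 (0.14 ± 0.29) and Fgfr1op2 (-0.09 ± 0.17). Neither passed.

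Genes around the pathways, taken from lists by symbol, were called in both directions. The lists here and below, like the marker lists above, were chosen with earlier results of these data known. Their shares past the test are therefore no independent evidence. Of 38 measured targets and regulators of TGF-beta and BMP signalling 5 rose, 7 fell and 26 did not pass, with a median of -0.05 against -0.00 for all genes. The share past the test was 31.6%, against 19.4% of all genes. Tgfbi, a matrix protein induced by TGF-beta, was higher at 0.89, 0.55 and 0.46 in mice 11, 12 and 13 (mean 0.64 ± 0.23, adjusted p = 0.00686, limma). Bambi, a decoy receptor that dampens TGF-beta and BMP signals, was lower at -0.43, -0.76 and -0.49 (mean -0.56 ± 0.18, adjusted p = 0.00748, limma). The corepressor Tgif1, which binds Smads, was higher at 0.42 ± 0.02 (adjusted p = 0.00868, limma). Sostdc1, a secreted BMP antagonist of the distal nephron, was lower at -0.32, -0.48 and -0.47 (mean -0.42 ± 0.09, adjusted p = 0.0109, limma). Id4, of a family of BMP target genes, was lower too, at -0.54 ± 0.26. The TGF-beta activated kinase Map3k7 was at -1.45 ± 0.92, but its row lies in a crowded stretch. The calls of Eng, Skil, Nodal, Thbs1 and Cited2 ended with 1 mouse left out, and without mouse 11 only 3 genes of the list rose and 4 fell (without mouse 13, 3 rose).

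Of 28 measured growth factor ligands, receptors and co-receptors outside the rule 5 rose, 5 fell and 18 did not pass (median -0.06). The share past the test was 35.7%, against 19.4% of all genes. The receptor tyrosine kinase Axl was higher at 0.78, 0.62 and 0.78 in mice 11, 12 and 13 (mean 0.73 ± 0.09, adjusted p = 0.00165, limma). Its ligand Gas6 was at 0.40, 0.38 and 0.26, a mean of 0.35 ± 0.07 that passed (adjusted p = 0.019, limma) but not without mouse 11 (adjusted p = 0.106, limma). Hpn, the protease hepsin that can activate HGF, was higher at 0.43 ± 0.06. The macrophage growth factor receptor Csf1r was lower at -0.72 ± 0.33 (adjusted p = 0.00919, limma). Of 9 measured monocyte and macrophage markers 5 were higher and Csf1r alone was lower (66.7% past the test, against 19.4% of all genes). Without mouse 11 only 1 of these markers, Ctss, was still higher. Without mouse 11 only 3 of the 28 ligands and receptors rose and 2 fell.

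Among 24 measured genes of receptor tyrosine kinase signalling and feedback 3 rose, 4 fell and 17 did not pass (median 0.05). The share past the test was 29.2%, against 19.4% of all genes. Egr1, an immediate early gene induced by growth factors, was higher at 1.21 ± 0.22 (adjusted p = 0.000475, limma), and the kinase subunit gene Pik3r1 at 0.48 ± 0.13 (adjusted p = 0.00829, limma). Socs3, a feedback inhibitor of cytokine receptors, was lower at -0.50 ± 0.29 (adjusted p = 0.0223, limma). The lower calls of Akt2 (rows at -2.15 and 0.07) and Fos (rows at -1.07 and -0.22) each rest on a gene with 1 row in a crowded stretch, and without such rows 2 genes of the list fell. The calls of Grb2 (0.31 ± 0.09) and Sos2 (-0.31 ± 0.13) ended with 1 mouse left out.

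Of the 68 members 16 had more than 1 row on all 3 arrays. Rows of 1 gene are probes of the same RNA and no replicates. In 5 of them, Bmpr1a, Fgf1, Fgfr4, Igf2r and Ccn5, the row means lay on both sides of 0. The range of row means was above 0.5 in 0 of the 16. The widest range was that of Igf1, from -0.63 to -0.16. Of the 88 member rows 10 (11.4%) lie in crowded stretches, against 7.06% of all rows on 3 arrays, and Fgf18 is the only called member among them. Outside the measured rows, Fgf8 had a row in such a stretch at -2.30 and -1.22 in mice 12 and 13, and another row, outside the stretches, at 0.24 and 0.31 in mice 11 and 13. Likewise a row of Tgfbr2 in a stretch read -1.04 in mouse 13, while the row measured on 3 arrays had a mean of 0.05.

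**Figure D4:**
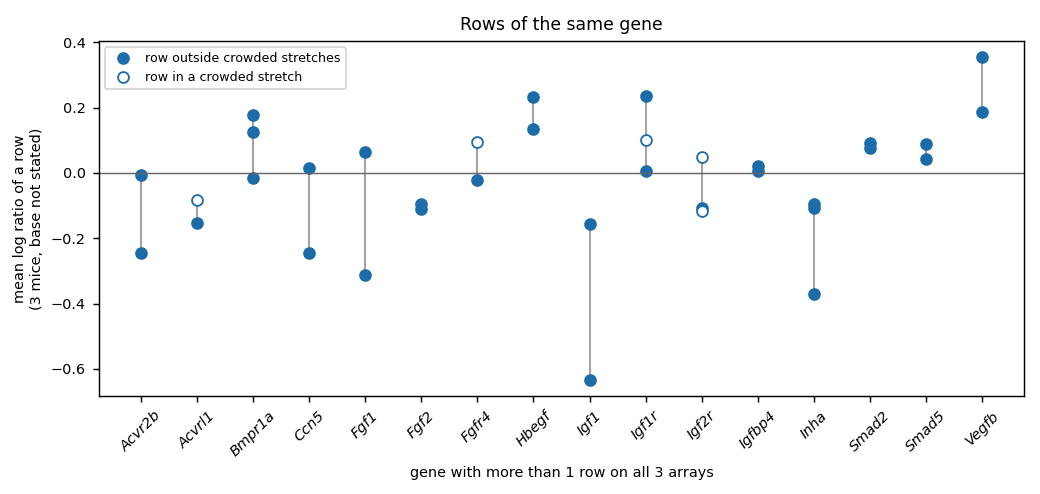
Mean log ratio over 3 mice (y axis, base not stated) of each row of the 16 members with more than 1 row on all 3 arrays (x axis). Filled points are rows outside crowded stretches, open points rows inside them, and a line joins the rows of a gene. The rows of Igf1 lie farthest apart, at -0.63 and -0.16, both below 0.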

How the data were processed

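Kidney RNA of 3 anti-GBM mice, each against 1 pool of 5 normal mice, was read from 1 deposited table of log ratios. Scanner, background correction, normalization, flags, log base and direction as the authors used them stand in no label, header or file used here. These deposited values run from -3.62 to 2.74. Exact zeros, 29.5% to 33.7% of an array, were read as no estimate. The supplied platform annotation named 1 gene for 13738 rows and several for 52, with 2491 not listed. RefSeq (GRCm38.p6) held the gene numbers of 13694.

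Arrays were centred on their medians over values other than 0 (0.00767, 0.0105 and 0.00998). Rows of 1 gene on all 3 arrays were averaged, and an intercept-only model was fitted to 7235 genes by lmFit and eBayes of limma 3.58.1 (R 4.3.3, prior degrees of freedom 5.55), with Benjamini-Hochberg adjusted p under 0.05. The script was tested on simulated data. It called 54 of 100 genes shifted by 0.5, 2 of 100 shifted by 0.25 in size and 1 of 7035 without a shift. Small shifts were thus mostly missed. Far more genes were called in the data than in the simulation, so these shares need not hold there. Python 3.11.15, pandas 2.3.3, numpy 2.4.6 and matplotlib 3.10.9 did the rest. Depth has no meaning for these ratios, whose precision is limited by the number of arrays.

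The members and lists were chosen with earlier results of these data known. Named were all called members, the members of each role with the largest means, those with the largest and smallest spread between mice and up to 5 called genes per pathway list, with others chosen after their values were seen. Alternatives left out each mouse or changed centring, the treatment of zeros, row choice, crowded stretches, moderation and the prior. Coordinates are given only for promoters, since the labels name no build for the probes.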

Additional observations from a re-analysis of the deposited data

How the results depend on the processing

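Of the 10 calls among the members, 7 held with any 1 mouse left out. With a mouse left out the higher members numbered 3 to 5 and the lower members 6 to 8, against 3 and 7, and all genes numbered 355 to 541 higher and 371 to 539 lower, against 686 and 721. The lowest counts of all genes were those without mouse 11, and the 5 higher members were counted without mouse 13. With rows on at least 2 arrays kept, 5 members were higher, since Acvr1 and Inhbb then had values to test. With exact zeros kept as 0, on values not centred and with every row of a named gene taken in, 309 genes were higher and 259 lower. The calls of Tgfb3, Vegfd and Ereg ended there (adjusted p from 0.057 to 0.0963, limma). Tgfb3 and Vegfd have 1 row each, with no zero. Their own ratios therefore differed only by the centring, and the rest of the change came from fitting another set of genes. The plain test per gene without moderation called 2 genes higher and 1 lower, and 0 members in either direction. At unadjusted p under 0.05 it had 11 members, against 23 in limma's fit, and the shares of all genes were not counted. The pathway lists lost calls as well. With zeros kept, the TGF-beta and BMP list had 3 higher and 2 lower against 5 and 7, the other ligands and receptors 2 lower against 5, and the tyrosine kinase list 1 and 1 against 3 and 4. With 1 row per gene the tyrosine kinase list had 2 lower, and the plain test called 0 genes of any list. No called member changed sign under any alternative run. The other alternatives, which are no centring, the running median, 1 row per gene, single rows, no crowded stretches and a robust prior, kept the counts of members and of all genes within 1.5 times. No paired analysis was possible because there is 1 group of mice and 1 control pool. The direction of the ratio could not be settled from the table, so turning every sign was not run as a setting. Signal over background was not used here, so the precision of dim spots is unknown.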

Other observations

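The members without a row on all 3 arrays include several central ligands and receptors, and most of their values rest on 1 or 2 mice. With rows on at least 2 arrays kept, 12 further members could be tested on centred values. Of these Inhbb (0.69, adjusted p = 0.0115, limma) and Acvr1 (0.57, adjusted p = 0.0429, limma) were higher, each from mice 12 and 13 alone. Inhbb averages rows at 1.35 and 0.04, so the call rests on 1 of its rows. Ltbp2 (0.40, adjusted p = 0.0587, limma), Fgf14 (-0.33, adjusted p = 0.0666, limma) and Bmp8a (-0.24, adjusted p = 0.0897, limma) were nearest to the threshold among the others. The rows of Bmp8a together cover all 3 mice, as do those of Fgf8 (-0.85, adjusted p = 0.19, limma), whose rows disagree in sign. The accessory receptor Tgfbr3 had deposited values in mouse 13 only, 0.50 and 0.21 in its 2 rows.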
